A study of Caenorhabditis elegans with 2 samples.

Results

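Distal intergenic regions are stretches of immunoprecipitated chromatin that lie between genes and away from promoters. They were taken from the list of ETS-7-GFP regions that the authors called at a relaxed threshold on the pooled replicates. A nuclear region was kept if its summit, the position of highest enrichment, lay outside every annotated gene of any kind, and outside the span from 1000 bp upstream to 200 bp downstream of every protein-coding 5′ end. No tRNA, snoRNA, snRNA, miRNA or rRNA gene was allowed within 500 bp of the summit. The rule uses positions alone and no signal. It kept 2095 of 11607 nuclear regions (18.05%), out of 11626 pooled regions in all. Of these, 53 are also in the optimal list, the 595 regions that the authors retained after comparing the replicates.

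The study profiled the binding of ETS-7 by ChIP-seq in early embryos of *Caenorhabditis elegans*, as 1 group of 2 biological replicates, numbered 3 and 4. The worms were hermaphrodites of strain OP487, a stable transgenic line in which ETS-7 carries GFP and FLAG at its C terminus, and were collected 3 hours after synchronization by egg bleaching. Chromatin was sheared by sonication and precipitated with an antibody against GFP. Whole embryos were used, so the cells in which a region was bound are not known. Both replicates come from the same strain, no untagged or other comparison group was analysed here, and the labels do not say how the expression of the fusion compares with that of the untagged protein.

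ETS proteins are transcription factors that share a winged helix-turn-helix domain, with which they contact the core GGAA in DNA. Bases on both sides of the core set the affinity, and many members of the family prefer a core preceded by ACC or CC. In *C. elegans* most known regulatory DNA lies close to genes, but intergenic enhancers several kilobases from a gene are known for developmental regulators. A region has no gene of its own here, so each is named by the protein-coding gene with the nearest 5′ end, which need not be a gene that it regulates.

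The sequences at the summits show which part of the distal regions carried an ETS sequence and which did not. Of the 53 optimal distal regions, 9 had ACCGGAAG on either strand within 100 bp of the summit. They are shown with 20 bases on each side, 5′ to 3′ on the strand that reads ACCGGAAG, which is in capitals, from the RefSeq genome of the WBcel235 (ce11) assembly.
*K12H4.7*, III:8053604-8053651, minus strand: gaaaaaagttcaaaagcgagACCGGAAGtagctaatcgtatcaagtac
*hlh-14*, II:5736010-5736057, plus strand: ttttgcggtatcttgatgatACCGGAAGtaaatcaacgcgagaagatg
*affl-2*, III:432913-432960, minus strand: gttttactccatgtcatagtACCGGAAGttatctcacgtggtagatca
*alr-1*, X:11128268-11128315, plus strand: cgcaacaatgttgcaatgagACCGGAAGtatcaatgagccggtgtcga
*ghi-1*, II:11644441-11644488, minus strand: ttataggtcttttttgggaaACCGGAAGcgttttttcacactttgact
*Y65A5A.1*, IV:16403618-16403665, minus strand: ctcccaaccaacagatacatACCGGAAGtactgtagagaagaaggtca
*sor-1*, III:8416792-8416839, minus strand: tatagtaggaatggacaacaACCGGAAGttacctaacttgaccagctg
*lag-2*, V:3186499-3186546, minus strand: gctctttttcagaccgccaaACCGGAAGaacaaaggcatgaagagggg
*sup-26*, III:4282717-4282764, minus strand: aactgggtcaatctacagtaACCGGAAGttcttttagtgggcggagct

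The base after ACCGGAAG was T in 7 of these 9 sites, A in 1 and C in 1. All 9 sites lay within 31 bp of the summit and 7 of them within 25 bp. Another 7 optimal distal regions had the shorter CCGGAA alone. The 4 of highest signal are shown here with CCGGAA in capitals, and in each of these 4 the base before the capitals was G and the base after them was G.
*T25D10.4*, II:6411749-6411794, plus strand: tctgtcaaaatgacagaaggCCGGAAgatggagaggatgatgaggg
*C47G2.3*, II:11288346-11288391, plus strand: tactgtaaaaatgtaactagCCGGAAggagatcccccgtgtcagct
*Y65A5A.2*, IV:16408012-16408057, minus strand: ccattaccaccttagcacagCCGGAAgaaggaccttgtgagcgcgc
*dot-1.2*, X:11870575-11870620, plus strand: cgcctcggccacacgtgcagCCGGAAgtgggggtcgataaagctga

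The remaining 37 optimal distal regions had no CCGGAA in that window. The 101 bp around the summit are shown for 3 of the strongest, on the plus strand and with each GGAA core in capitals. The stretch near *fbxa-55* repeats itself with a period of 54 bp, at which 46 of 47 bases matched.
*fbxa-55*, III:931555-931655: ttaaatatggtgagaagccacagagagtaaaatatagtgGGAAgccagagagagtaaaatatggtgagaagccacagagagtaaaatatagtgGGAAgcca
*F13D11.3*, X:5812150-5812250: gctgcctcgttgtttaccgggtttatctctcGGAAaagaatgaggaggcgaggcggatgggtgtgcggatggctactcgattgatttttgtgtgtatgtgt
*M163.8*, X:14486735-14486835: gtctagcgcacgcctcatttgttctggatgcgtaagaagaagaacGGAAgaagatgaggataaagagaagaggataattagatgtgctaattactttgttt

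A pair of regions outside the optimal list are shown for the genes beside them. The first lies upstream of *ets-7*, the gene of the precipitated factor, and the second upstream of *ceh-37*, which encodes an Otx-type homeodomain protein. The *ceh-37* stretch holds ACCGGAAG at a further place, printed in lower case.
*ets-7*, V:7560002-7560049, plus strand: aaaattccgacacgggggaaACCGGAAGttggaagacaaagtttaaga
*ceh-37*, X:14209315-14209362, plus strand: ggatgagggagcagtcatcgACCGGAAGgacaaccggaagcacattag

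The full summit window of the strongest region with ACCGGAAG, 2550 bp upstream of *K12H4.7*, shows how isolated that sequence can be. Its 201 bp hold a single ETS core, in capitals, read here on the plus strand as the complement TTCC.
*K12H4.7*, III:8053531-8053731: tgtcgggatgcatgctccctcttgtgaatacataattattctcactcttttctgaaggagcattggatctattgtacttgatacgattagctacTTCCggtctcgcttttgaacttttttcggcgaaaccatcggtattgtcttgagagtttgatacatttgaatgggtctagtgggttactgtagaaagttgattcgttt

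The strongest distal regions carried signals well above the rest of the list. Signal is the authors' value of enrichment per region. Its scaling is not given, and it was compared only within 1 list or between the replicate lists. The median pooled signal of the 2095 regions was 34.7 (95% interval of the median 34.1 to 35.2), from 27.5 at the lowest to 464 at the highest. It was 37.7 over 2151 intergenic promoter regions, those with the summit between genes but inside a promoter span, and 33.4 over 2343 intronic regions away from promoters. All nuclear pooled regions had a median of 34.8. Distal regions therefore lay close to the middle of the whole list, and the differences between classes were small beside the interquartile range of 30.4 to 42.8 among distal regions.

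Fewer distal regions reached the optimal list than regions in promoters. The share was 53 of 2095 (2.53%, exact 95% interval 1.90 to 3.30%), against 4.96% of all nuclear pooled regions, 8.41% of intergenic promoter regions (181 of 2151) and 1.92% of intronic regions (45 of 2343). The optimal list is in effect a threshold on the pooled signal. The last members inside it, near *F55G7.5*, *sup-26* and *aqp-2*, had signals of 81.8, 81.3 and 81.1. The first outside it, near *rho-1*, *mec-8* and *fbxb-58*, had 79.6, 79.2 and 79.0. The 53 regions form 51 separate loci, since neighbours upstream of *mig-15* and of *sup-26* overlap.

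The region of highest signal, I:933351-933677, lies 4965 bp upstream of *nas-30*, a metalloprotease gene of the astacin family. Its signal was 464 in the pooled list, 266 in replicate 3 and 232 in replicate 4. The region ranked after it, III:931517-931690, lies 1817 bp from *fbxa-55*, an F-box gene, with 273 pooled, 153 in replicate 3 and 136 in replicate 4. Both hold repeated sequence. Of the 36-base words in them, 35.3% and 69.1% occur once in the genome, in that order, and both are narrower than the usual 480 bp. Regions with under 90% of such single-copy words made up 185 of 2095 (8.83%), 7 of the 53 optimal regions and 2 of the 15 strongest. They also made up 8.83% of all nuclear pooled regions, 6.65% of intergenic promoter regions and 9.13% of intronic regions. Of the 201-bp windows tiling distal DNA, 21.9% had under 90% of such words, measured over a shorter stretch. None of the 7 optimal ones had CCGGAA near the summit. Of all 185, however, 40 (21.6%) had it, against 14.1% of single-copy distal regions. The part of repeated DNA in the signal of the 7 was not tested.

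The strongest single-copy regions lay beside genes of varied function. The region 2844 bp from the 5′ end of *hlh-14*, a proneural basic helix-loop-helix gene, had 150 pooled, 66.9 in replicate 3 and 84.3 in replicate 4. The region between *F13D11.3* and *hbl-1*, 9942 bp from *hbl-1*, the hunchback-like zinc finger gene of developmental timing, had 149 pooled, 86.2 in replicate 3 and 65.6 in replicate 4. The region upstream of *alr-1*, an Aristaless-related homeobox gene, had 140 pooled, 47.8 in replicate 3 and 90.8 in replicate 4. Replicate 4 was higher at *hlh-14* and *alr-1* and replicate 3 at *hbl-1*.

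The region upstream of *K12H4.7* had a pooled signal of 177, and 88.5 in each replicate. It is the strongest distal region with single-copy sequence throughout. Its other neighbour, 13658 bp away, is *pros-1*, which encodes the worm Prospero homeodomain protein. Between *unc-130*, a forkhead gene, and *C47G2.3*, a region had 140 pooled, 62.1 in replicate 3 and 76.1 in replicate 4. A region between *M163.8* and *his-24*, a linker histone H1 gene, had 146 pooled, 47.8 in replicate 3 and 92.0 in replicate 4. It lies 830 bp from *M163.8* and 3309 bp from *his-24*. A tRNA gene is nearer, at 502 bp, just beyond the 500 bp within which the rule allows none. At *M163.8* the replicates thus differed far more than at *K12H4.7*.

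Other strong regions stood upstream of *T25D10.4* (154 pooled, 68.3 in replicate 3 and 91.0 in replicate 4) and of *ghi-1* (135 pooled, 41.1 and 91.8 in the same order). A region upstream of *affl-2*, which encodes a protein of the AF4/FMR2 family, had 148 pooled, 68.9 in replicate 3 and 76.9 in replicate 4. A region 6943 bp upstream of *mig-15*, a kinase gene of the Ste20 group, had 135 pooled, 65.2 in replicate 3 and 72.6 in replicate 4. The region by *F20B6.9* lies 1294 bp from *hpk-1*, which encodes a homeodomain-interacting protein kinase, and had 120 pooled, 58.5 in replicate 3 and 65.7 in replicate 4. All of these regions were found in both replicates. Not every strong region is far from genes: that at IV:8375368-8375847 had 146 pooled and lies 114 bp from *D2096.7* and 237 bp from *aagr-1*, an acid alpha-glucosidase gene, beyond the reach of any promoter span. Within 500 bp of a protein-coding gene lay 5 of the 53 optimal and 297 of all 2095 distal summits (14.2%). The rule itself limits such positions, since it leaves out 1000 bp upstream of every protein-coding 5′ end. Noncoding genes are not part of that count, and 8 of the 53 and 443 of the 2095 summits had one within 500 bp. The summits by *F13D11.3*, *C47G2.3* and *T25D10.4* lay 13, 22 and 86 bp from a gene annotated as ncRNA, in that order.

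Lower in the optimal list, a region 4003 bp upstream of *ceh-43*, the Distal-less homeobox gene, had 93.4 pooled, 39.3 in replicate 3 and 53.3 in replicate 4. A region 1789 bp upstream of *lag-2*, which encodes a DSL ligand of Notch receptors, had 83.3 pooled, 33.7 in replicate 3 and 48.2 in replicate 4. The strongest region of chromosome V, near *F58D12.3*, had 95.8 pooled with 60.0% single-copy words. The 3 optimal regions farthest from any 5′ end were those of *W05H9.4* at 7772 bp, *F54F12.1* at 7320 bp and the overlapping neighbour of the *mig-15* region at 7152 bp.

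All 53 optimal distal regions overlapped a region in both replicate lists. The optimal list was made by comparing the replicates, and the distal regions at ranks 54 to 106, outside it, all did so too. The overlap therefore does not set the optimal regions apart. The median signal of the 53 was 47.8 in replicate 3 and 50.6 in replicate 4. Of these 53, 37 stood among the 595 highest of replicate 3, 38 among those of replicate 4, and 25 among both. The replicates did not shift alike. All 9 regions with ACCGGAAG were higher in replicate 4, with medians of 47.8 in replicate 3 and 76.9 in replicate 4, although at *K12H4.7* the values were equal after rounding. Among the 16 with CCGGAA the median log2 ratio of replicate 3 to replicate 4 was −0.36 and 15 were higher in replicate 4. Among the 37 without it the median ratio was 0.10 and 16 were higher in replicate 4, with medians of 46.6 in replicate 3 and 46.3 in replicate 4.

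**Figure D1:**
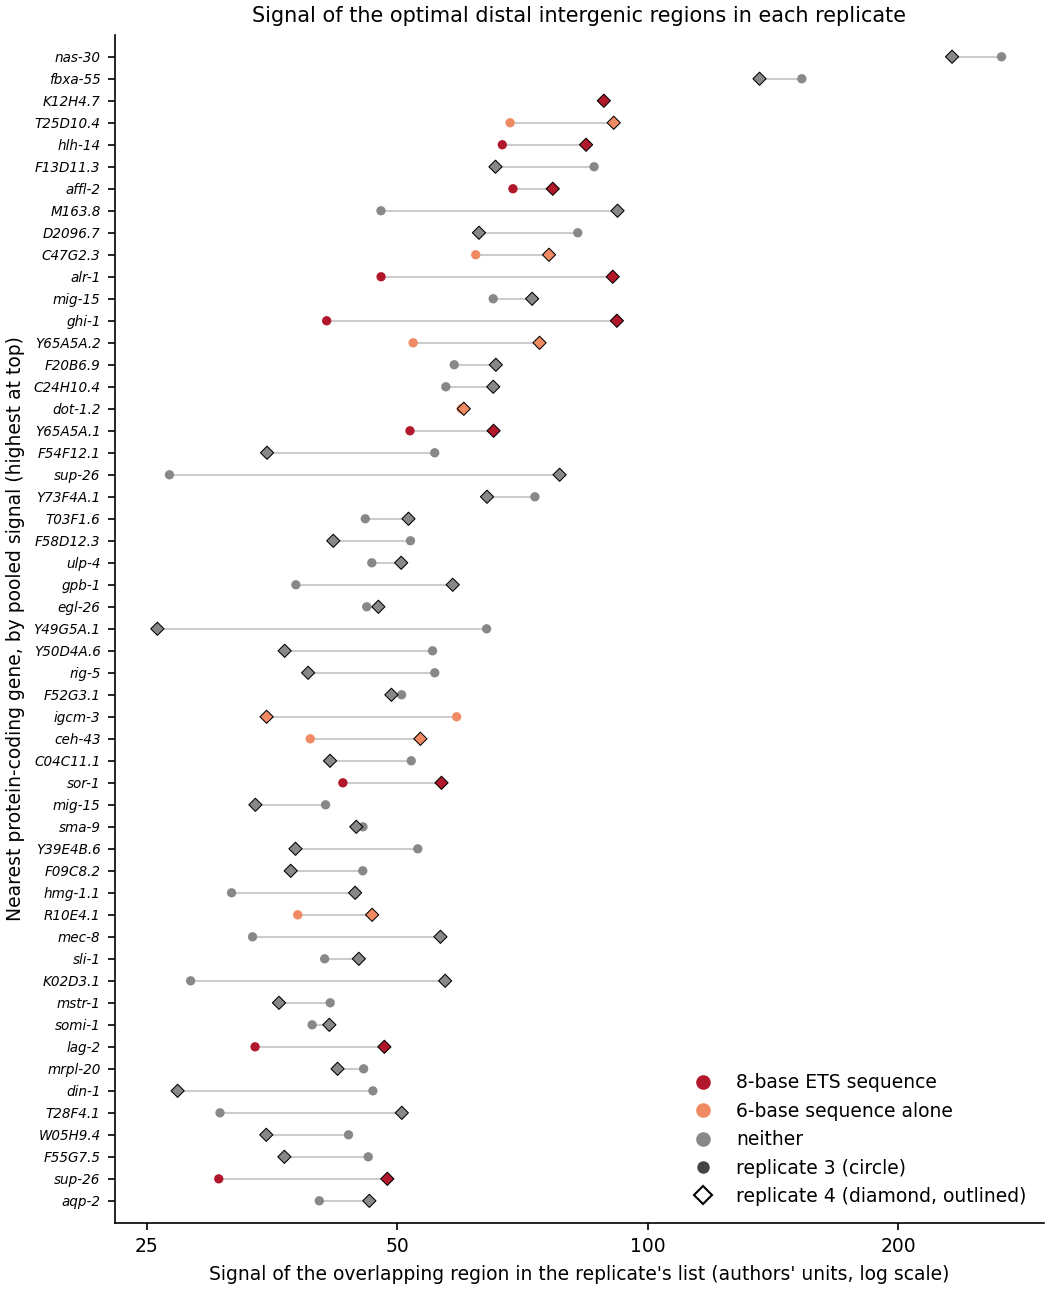
Signal of each of the 53 optimal distal intergenic regions, on a log scale in the authors' units, as a circle for replicate 3 and an outlined diamond for replicate 4; rows are ordered by pooled signal, and colours give the ETS sequence within 100 bp of the summit. In all 9 rows with the 8-base sequence the diamond lies at or to the right of the circle, while rows with neither sequence go both ways.

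The same leaning appeared over all distal regions found in both replicates, but with wide overlap. Those with ACCGGAAG had a median log2 ratio of −0.16 (quartiles −0.47 and 0.27, n = 53), and 60.4% were higher in replicate 4. Those without CCGGAA had 0.16 (quartiles −0.16 and 0.51, n = 1017), and 37.4% were higher in replicate 4. Base composition also differed between these sets, with a median GC of 37.1% and 40.8%. Below 45% GC, distal regions with CCGGAA had a median ratio of −0.02 (n = 138) and those without it 0.17 (n = 639). Over all nuclear pooled regions the sets lay closer together. Those with ACCGGAAG had −0.03 (n = 272), with 51.8% higher in replicate 4. Those with CCGGAA had 0.09 and 43.4%, and those without it 0.14 and 38.1%. Whether depth, precipitation efficiency or the embryo culture set the difference was not tested, since the files hold no read counts and there is 1 library of each replicate.

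Of all distal regions, 1201 (57.3%, exact 95% interval 55.2 to 59.5%) overlapped a region of both replicates, against 58.1% of all nuclear pooled regions and 65.7% of intergenic promoter regions. A further 32 (1.53%) overlapped none in either list, and 1677 overlapped one in replicate 3 and 1587 one in replicate 4. The overlap rested on rank: it was 100% for the 106 strongest distal regions, 67.9% for ranks 531 to 1060 and 33.3% for ranks 1061 to 2095. Across the 1201 regions Spearman's correlation between the replicates was 0.32, against 0.52 across 1413 intergenic promoter regions and 0.32 across 1194 intronic regions. Regions share the libraries, some share a replicate region, and all passed the pooled threshold, so this describes the order within these lists. The median log2 ratio of replicate 3 to replicate 4 was 0.14 with a standard deviation of 0.52 among distal regions.

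The 8-base ETS sequence was far more common at distal summits than in the intergenic DNA they came from. It was present in 78 of 2095 distal regions (3.72%, exact 95% interval 2.95 to 4.63%), against 3.32% of all nuclear pooled regions and 2.32% of intergenic promoter regions. Of 90788 tiled windows of 201 bp, 0.405% held it. A window was kept only where the same rule held at all its bases, so DNA at the edges of the distal space is partly left out. The share of distal regions was thus close to that of the pooled list as a whole and above that of the tiled windows. CCGGAA was present in 309 (14.7%, interval 13.3 to 16.3%), against 14.1% of all nuclear pooled regions, 10.1% of intergenic promoter regions, 17.6% of intronic regions and 7.59% of the windows. Among holders of CCGGAA, 25.2% of distal regions had the full ACCGGAAG, against 5.34% of windows. The 4-base core GGAA, at a median of 2 per window in distal regions and in the tiled windows alike, did not set them apart.

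Strong regions held the ETS sequence more often than weak ones. Among the 53 optimal distal regions CCGGAA was present in 16 (30.2%, exact 95% interval 18.3 to 44.3%) and ACCGGAAG in 9 (16.98%, interval 8.07 to 29.8%). At ranks 54 to 106 the shares were 26.4% and 5.66%, at ranks 107 to 212 they were 25.5% and 10.4%, and at ranks 213 to 530 they were 15.1% and 5.66%. At ranks 1061 to 2095 they were 12.9% and 2.03%. The 8-base share did not fall evenly, and it rests on 3 regions at ranks 54 to 106. Seen from the sequence, the 78 regions with ACCGGAAG had a median signal of 43.6 and 9 of them (11.5%) were optimal. The 231 with CCGGAA alone had a median of 35.1 and 7 optimal regions (3.03%). The 1786 without either had a median of 34.4 and 37 optimal regions (2.07%). Over all nuclear pooled regions the picture was alike for ACCGGAAG, but the contrast for CCGGAA was weaker than among distal regions. There, 40 of 385 regions with ACCGGAAG were optimal, at a median signal of 44.3. With CCGGAA 93 of 1642 were optimal, at a median of 35.7, and without it 483 of 9965, at 34.7. Among distal regions with CCGGAA 16 of 309 (5.18%) were optimal, at a median of 36.9. The 576 optimal nuclear regions thus included 93 with CCGGAA and 40 with ACCGGAAG. With the 7 optimal distal regions of repeated sequence left out, CCGGAA was present in 16 of 46 (34.8%). Each replicate's own list gave a like picture, with CCGGAA in 11 of the 50 distal regions among the 595 highest of replicate 3 and in 18 of the 57 of replicate 4.

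**Figure D2:**
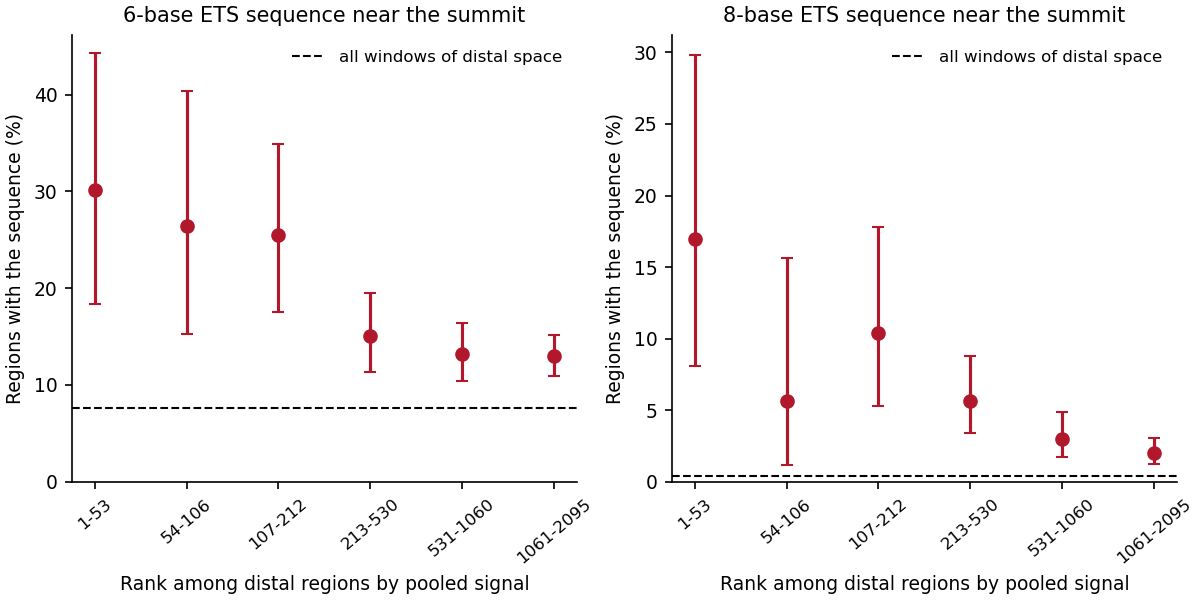
Share of distal intergenic regions with the 6-base (left) and 8-base (right) ETS sequence within 100 bp of the summit, in percent, by rank of pooled signal; points are shares, bars exact 95% intervals, and the dashed line the share of 201-bp windows tiling the same DNA. The 6-base share is 30.2% in the 53 strongest regions and 12.9% in the weakest group, and the dashed lines lie at 7.59% and 0.405%.

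The ETS sequences were densest around the summits, but many copies lay elsewhere. Of 85 copies of ACCGGAAG within 100 bp of a distal summit, 52 (61.2%) were within 25 bp of it, against 21 of 53 (39.6%) for intergenic promoter summits and 34 of 75 (45.3%) for intronic ones. Among the optimal distal regions CCGGAA occurred 20.8 and 15.1 times per 100 regions in the 50-bp bins on either side of the summit. In the other 2042 distal regions the same bins held 7.35 and 6.95 per 100. Their other bins within 250 bp of the summit held between 4.16 and 5.93 per 100, and the bins at the ends of the 1000-bp span, outside a region of the usual width, 3.33 and 2.89. The counts in the optimal set are small, with 11 and 8 copies in the central bins, and single bins away from the summit reached 9.43 per 100 on 5 copies.

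**Figure D3:**
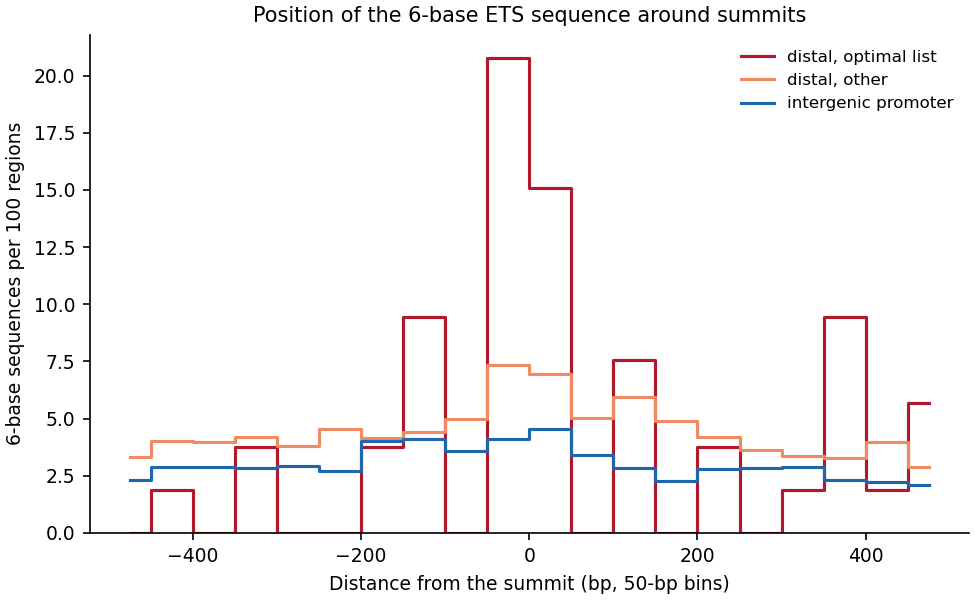
Copies of the 6-base ETS sequence on either strand per 100 regions, in 50-bp bins of distance from the summit, for optimal distal, other distal and intergenic promoter regions. The optimal distal regions reach 20.8 per 100 in the bin left of the summit, where other distal regions reach 7.35.

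Distal regions, like the pooled list as a whole, were richer in G and C than the tiled distal DNA. The ETS sequence was not evenly spread over the range of GC. The median GC of the 201-bp summit window was 40.8% in distal regions and 46.8% in the optimal ones, against 33.3% in the tiled windows. It was 41.3% over all nuclear pooled regions, and 39.3% in both intergenic promoter and intronic regions. Between 35 and 40% GC, 23.4% of distal regions held CCGGAA and 6.62% held ACCGGAAG, against 10.4% and 0.510% of windows of the same GC. From 50% GC upward the shares were 8.76% and 0.797%, against 7.78% and 0.693% of windows. Under 30% GC, CCGGAA was in 5.56% of distal regions (12 of 216) and 4.50% of windows, while ACCGGAAG was in 3.24% and 0.243%. The 6-base shares of regions and windows thus lay furthest apart between 30 and 45% GC and close together at both ends of the range, while the 8-base shares were apart in every bin under 45% GC.

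GC-rich distal regions held other simple sequences. GAGAGA, a run of GA repeats searched on both strands, was present in 24.7% of distal regions and 34.0% of the optimal ones. GAGAGA was in 25.01% of intergenic promoter regions, 16.05% of intronic regions, 20.7% of all nuclear pooled regions and 10.1% of windows. From 50% GC upward it was in 41.8% of distal regions and 17.96% of windows. CACACA was present in 17.7% of distal regions and 9.33% of windows, and from 50% GC upward in 35.1% against 14.1%. CACACA was in 18.1% of intergenic promoter regions, 14.5% of intronic regions and 15.04% of all nuclear pooled regions. For both sequences the distal share thus lay close to that of intergenic promoter regions. In the optimal list the sequences rarely met: GAGAGA was present in 1 of the 16 regions with CCGGAA and in 17 of the 37 without it (45.9%), and 15 of those 37 had neither GAGAGA nor CACACA. These sets differed in GC too, with medians of 42.3% and 47.8%. The part of base composition in sequencing or in fragment recovery was not tested.

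**Figure D4:**
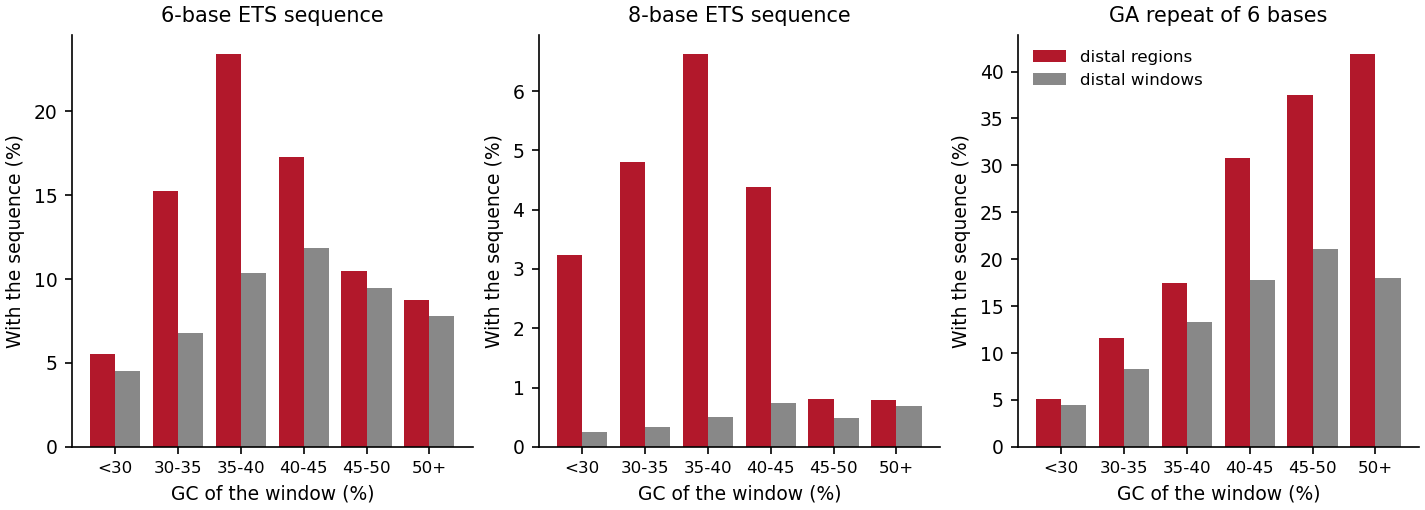
Share in percent of distal intergenic regions (left bar of each pair) and of tiled distal windows (right bar) with the 6-base ETS sequence, the 8-base ETS sequence and a GA repeat of 6 bases, by GC content of the 201-bp window. The ETS bars of the regions stand highest at 35 to 40% GC, at 23.4% and 6.62%, and the GA bars at 50% and above, at 41.8%.

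Other fixed sequences showed smaller contrasts. TGATAA, a site for GATA factors, was in 11.8% of distal regions, against 12.3% of all nuclear pooled regions and 17.1% of windows, and 5.66% of the optimal ones. At equal GC the shares lay closer, with 14.7% of distal regions and 15.5% of windows between 35 and 40% GC, and 5.98% and 3.52% from 50% GC upward. The E-box CACGTG was in 4.01%, against 4.06% of pooled regions and 2.77% of windows. The tRNA B-box letters GGTTCG were in 3.48%, against 5.57% of pooled regions and 3.08% of windows. TTAGGC, the worm telomere repeat unit, was in 6.11% against 5.53% of windows, and CTGTTTCA, found upstream of piRNA genes, in 1.00% against 1.59%. Tandem repeats of a unit of 1 to 6 bp, at least 18 bp long, were in 2.96% of distal regions and 1.20% of windows.

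Distal regions were found on every chromosome, but not in proportion to distal DNA. X held 474 (22.6%, exact 95% interval 20.8 to 24.5%), against 18.7% of all nuclear pooled regions, and 23.7% of the DNA that meets the rule. Per Mb of such DNA there were 135 regions on I, 132 on III, 112 on II, 93.7 on X, 80.2 on V and 70.5 on IV, and 98.3 over the nuclear genome. Optimal regions followed another order, with 4.06 per Mb on III, 3.603 on II, 3.36 on X, 2.43 on I, 1.25 on V and 0.934 on IV. They numbered 17 on X, 11 on II, 10 on III, 6 on I, 5 on V and 4 on IV, so that the order among neighbours rests on few regions. CCGGAA was least frequent on X, in 10.8% of its distal regions, and between 14.2% and 16.9% on the others.

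**Figure D5:**
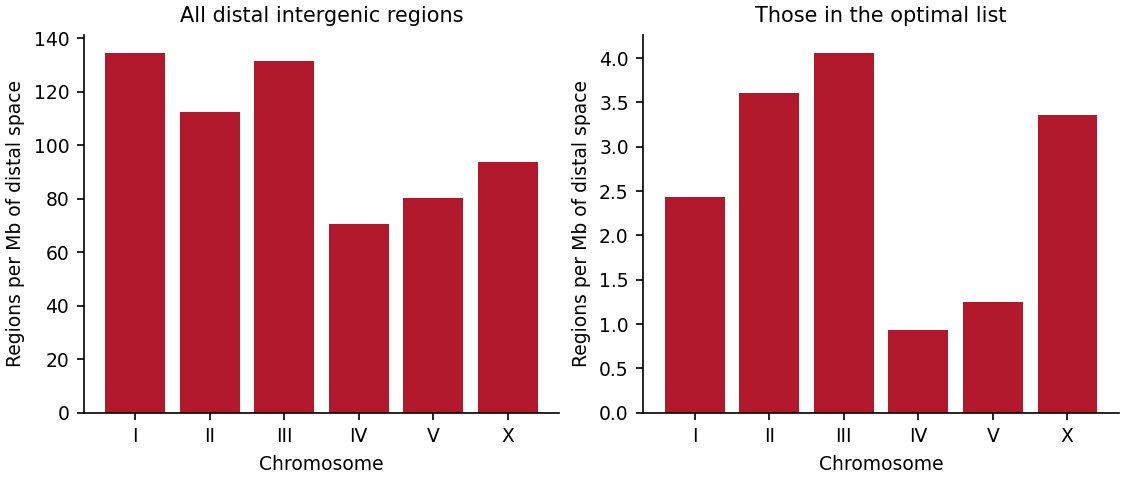
Distal intergenic regions per Mb of DNA meeting the same rule, by chromosome, for all 2095 regions (left) and for the 53 in the optimal list (right). Chromosome I is highest on the left at 135 per Mb and III on the right at 4.06 per Mb, while IV is lowest in both.

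The median distance from a distal summit to the nearest protein-coding 5′ end was 2586 bp (95% interval 2508 to 2682), and 2536 bp for the optimal ones. It was 2774 bp for the tiled windows, which met the rule over all their 201 bp and not at a summit alone. Where whole regions had to lie outside genes and promoters, their median was 2826 bp, so regions cannot be called closer to 5′ ends than windows. Distance had little relation to signal up to 10000 bp, with median signals of 35.6 from 1001 to 2000 bp, 34.1 from 2001 to 5000 bp and 35.01 from 5001 to 10000 bp. Beyond 10000 bp lay 48 regions with a median of 30.8. None of them was optimal (exact upper limit 7.40%) and none held ACCGGAAG. The strongest of these, 10905 bp upstream of *egl-27*, which encodes an MTA-type chromatin factor, had 62.6 pooled, 32.4 in replicate 3 and 26.8 in replicate 4. Those near *F57G12.1* and *npr-37* followed, with 53.6 and 52.9 pooled.

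Most distal summits lay upstream of the gene with the nearest 5′ end (1515 of 2095, 72.3%), against 67.4% of the windows. The summit lay between divergent genes in 33.03% of cases, between genes of the same direction in 56.9% and between convergent genes in 10.02%, against 32.0%, 54.1% and 13.7% of windows. The optimal share was 3.03% between divergent genes, 2.10% between genes of the same direction and 3.33% between convergent genes, on 21, 25 and 7 regions. A noncoding gene lay within 500 bp of 443 summits, of which 307 are annotated as ncRNA, 63 as pseudogene and 61 as piRNA. The rule allows no tRNA, snoRNA, snRNA, miRNA or rRNA gene at that distance, and no share of windows is given beside this count.

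The 2095 regions had 1576 different nearest genes. Of these genes 448 (28.4%) also had a pooled region in a promoter span, against 4302 of all 19973 nuclear protein-coding genes (21.5%). A single distal region was nearest to 1215 genes, while 106 genes had 3 or more. The highest numbers, singled out after the values were seen, were 11 at *egl-18*, a GATA factor gene of the epidermis, and 6 at *ztf-6*, a zinc finger gene. Genes with 5 included *pop-1*, the worm TCF factor of Wnt signalling, *egl-27*, *mec-8*, an RNA-binding splicing regulator, *rho-1*, the RhoA GTPase, and *zfh-2*, a zinc finger homeodomain gene. None of the 11 at *egl-18* was optimal, and the strongest had 57.3 pooled. Genes in large intergenic spaces have more room for distal regions, and the number per base of space was not computed for single genes.

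Genes of transcription factor families were compared by list, where a region belongs to a list if its nearest gene does. Homeobox genes of the *ceh* class were nearest to 24 distal regions at 16 genes (1.15% of distal regions), against 0.569% of all nuclear pooled regions. Of all pooled regions nearest to *ceh* genes, 36.4% were distal, where 18.05% of the nuclear list was. Across the lists described here and below, this share ran from 7.38% for collagen to 41.7% for Hox genes. It was 32.4% for Wnt and Notch genes, 29.9% for neuropeptide, 18.9% for chemoreceptor and 16.7% for C-type lectin genes. The part of the size of intergenic spaces in these shares was not tested. One of the 24 *ceh* regions was optimal, that of *ceh-43*, and 8 held CCGGAA. The median signal of the list was 37.1, against 34.7 over all distal regions. The *ceh-37* region printed above had 70.3 pooled, 34.9 in replicate 3 and 36.6 in replicate 4. A neighbour of the *ceh-43* region that overlaps it had 64.1 pooled.

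The Hox list had 5 distal regions at 3 genes, with none optimal. The highest, 2289 bp upstream of *ceh-13*, the labial-type Hox gene, had 57.5 pooled, 38.1 in replicate 3 and 22.8 in replicate 4. A region upstream of *egl-5*, the posterior Abdominal-B-type gene, had 42.1 pooled, 23.1 in replicate 3 and 22.2 in replicate 4. One upstream of *mab-5* had 37.8 pooled and overlapped a region only in replicate 3, at 25.9. These values lay near or moderately above the median of distal regions.

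Basic helix-loop-helix genes were nearest to 9 regions, of which the one at *hlh-14* was optimal. That of *hlh-29* had 43.5 pooled with 73.5% single-copy words, and that of *hlh-3* 38.8 pooled. The ETS family had 2 distal regions. That upstream of *ets-7*, 1242 bp from its 5′ end, had 66.5 pooled, 21.2 in replicate 3 and 41.2 in replicate 4, and held the ACCGGAAG printed above 9 bp from the summit. The number of copies of *ets-7* DNA in the transgenic line is not given in the labels, and its part in that signal was not tested. That upstream of *ast-1*, an ETS factor of dopaminergic neurons, had 35.8 pooled, 20.8 in replicate 3 and 17.7 in replicate 4.

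Nuclear hormone receptor genes were nearest to 32 regions with none optimal, led by *nhr-10* at 71.7 pooled, then *nhr-1* at 56.9 and *nhr-21* at 55.7. The list of GATA factor genes, set by symbol and so without *egl-18* and its 11 regions, had 3, at *elt-1* with 34.3, *elt-3* with 34.1 and *elt-2*, the intestinal GATA factor, with 31.4 pooled. The *elt-1* region overlapped none in replicate 4. Genes of the *ztf* and *zip* classes had 17 with none optimal, the strongest at *ztf-27* with 73.8 pooled, 25.2 in replicate 3 and 46.6 in replicate 4, and with CCGGAA. The T-box list had 1, at *tbx-11*, with 28.0 pooled. With 2.53% of all distal regions optimal, lists of this size hold too few regions for a count of 0 or 1 to be read either way.

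Lists of signalling and effector genes held regions from the lowest to the upper part of the distal range, in which the upper quartile of signal was 42.8. Wnt and Notch ligands and receptors had 11 regions at 6 genes, with the optimal *lag-2* region, 44.7 at *mig-1* and 36.8 at *cfz-2*, both Frizzled receptor genes. Collagen genes, listed by symbol whether or not they act in the cuticle, had 11, led by 2 genes with 60.7 at *col-99* and 52.2 at *col-88*. Only 7.38% of pooled regions nearest to genes of this list were distal. Ribosomal protein genes had 8 (11.8% of theirs), with 59.0 at *rps-25*, 56.9 at *rpl-21* and 40.6 at *rps-27*. Neuropeptide genes had 20, with 45.1 at *nlp-21*, 41.3 at *nlp-9* and 40.9 at *nlp-55*, the last in replicate 4 alone. Histone genes had 2, both at *his-24*, with 49.4 and 28.3. Each list is set by gene names and not by function in the embryo.

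Families of environmental and sensory genes were represented too. Chemoreceptor genes had 37 regions at 29 genes, with 71.2 at *sre-47*, 58.7 at *srh-37* and 52.5 at *srw-60*. That at *sre-47* had 5.17% single-copy words and differed between replicates, with 20.5 in replicate 3 and 46.9 in replicate 4. That at *srh-37* held ACCGGAAG. F-box genes had 16, of which *fbxa-55* was optimal, followed by *fbxb-58* at 79.0 and *fbxa-220* at 56.3. C-type lectin genes had 10, with 43.2 at *clec-62*, where ACCGGAAG was present and the signal was 14.7 in replicate 3 and 28.0 in replicate 4, then 38.2 at *clec-53* and 32.9 at *clec-9*, where 24.0% of the words were single-copy.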

How the data were processed

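ChIP-seq of ETS-7-GFP was analysed from deposited lists of regions on ce11 (WBcel235). The signal per region and the summit are as deposited by the authors. Per the deposited descriptions, the authors called regions in each replicate and in the pooled replicates at a relaxed threshold, and derived the optimal list from these. Aligner, peak caller, versions and scaling were not given in the sources used here. Depth is unknown without read counts, and intervals for shares cover the counting of regions only. The ce10 lists were not used, and control libraries were not analysed here.

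Genes and 5′ ends came from Ensembl release 115 and sequence from RefSeq. Python 3.11.15, pandas 2.3.3, NumPy 2.4.6 and SciPy 1.17.1 were used, and the scripts were tested on simulated data. A replicate region was matched by an overlap of at least 1 bp, taking the one with most shared bases. Sequences were searched on both strands within 100 bp of the summit, and ACCGGAAG contains CCGGAA. Single-copy words are 36-mers found once in the nuclear genome, since the read length is not given. No test was run over regions, which are not replicates. Intervals at 95% are exact (Clopper-Pearson) for shares and from order statistics for medians. The members, gene lists and sequences were chosen with earlier results of these data known. Named genes are those nearest the 15 strongest regions, the strongest of each chromosome, the farthest optimal or the strongest beyond 10000 bp, up to 3 of each gene list, up to 5 with ACCGGAAG, and the 3 on each side of the optimal threshold. Further optimal regions were named because their sequence is printed.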

Additional observations from a re-analysis of the deposited data

How the results depend on the processing

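Of 84 alternative values of 9 results, 67 moved by less than their 95% interval or, for the number of regions, by less than 1.5 times. The optimal share was 3.88% with no filter on small RNA genes and 0.859% for the upper part of the optimal list by signal. In the lists of single replicates, 1.68 to 2.01% of distal regions were among the 595 highest, against 3.58 to 3.71% of all nuclear regions of those lists. The median signal was 143 in that upper part (18 regions, 10 with CCGGAA), and 16.6 to 18.7 in the lists of single replicates, whose signals are on a lower scale. CCGGAA was present in 55.6% of that upper part, in 10.3% within 50 bp of the summit, and in 13.1 to 13.4% with 1 replicate left out, and ACCGGAAG in 3.72%. Overlap with both replicates was 54.5% with overlapping regions merged, 52.4% where the overlap had to cover at least 50% of the region and 37.9% for summits within 100 bp. The log2 ratio of the replicates was 0.11 for summits within 100 bp. The median distance was 3437 bp with promoters of 2000 bp, 2079.5 bp with promoters of 500 bp and 2826 bp where the whole region had to lie outside genes and promoters; the cause of the other shifts was not tested. No paired analysis was possible because there is 1 group. The unknown depth and 2 replicates limit what can be said of single regions.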
